A study of Mus musculus with 10 samples.

Results

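A set of 10 genes that govern the fate of epidermal keratinocytes was followed across the 5 groups of the study: the p63 gene Trp63, the Notch receptors Notch1 and Notch3, the Notch ligands Jag1 and Jag2, the Notch target Hes1, the differentiation factors Klf4, Grhl3 and Ovol1, and Sfn, which codes for 14-3-3σ. They were taken by their gene names from the deposited tables of 25814 genes, and each of the 10 was found once in all 10 libraries. Each group held 2 libraries. Primary keratinocytes from the tails of adult C57/B6 mice were grown in keratinocyte SFM medium poor in calcium, and their RNA was taken from cultures without T cells (keratinocytes alone) or from co-cultures from which the CD8+ T cells had been washed off (co-cultured keratinocytes). The CD8+ T cells were splenic, selected with microbeads and stimulated for 1 d through CD3 and CD28, and they were lysed directly (activated T cells), after a further 1 d in keratinocyte medium (T cells in medium), or after co-culture with keratinocytes (co-cultured T cells). According to the study's methods, all co-cultures held SFM mixed with X-VIVO medium, which contains calcium. The study describes such a mix for the T cells in medium too. If keratinocytes alone were kept in SFM only, medium and T cells cannot be told apart as sources of a difference. The length of the co-culture was 1 h by the deposited design text, and 1 d by the labels of the co-cultured T cells and by the study's methods. The labels of the co-cultured keratinocytes give no length.

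p63 is the transcription factor that marks the basal layer of stratified epithelia and keeps its cells proliferating. Notch receptors on one cell are bound by Jagged or Delta ligands on the next, and upon cleavage the intracellular part joins RBPJ in the nucleus and turns on targets such as Hes1 and Nrarp. In epidermis p63 and Notch restrain each other, and the departure of a cell from the basal layer goes along with Notch signaling and with factors such as Klf4, Grhl3 and Ovol1. In T cells Notch1 is a receptor with roles in development and effector function.

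The promoters of 7 of the 10 genes were matched by symbol in RefSeq (GRCm38.p6), whereas Trp63, Hes1 and Ovol1 were not. Over the 250 bases before each start, both strands were searched for the core of the RBPJ site (TGGGAA), its longer form of 7 letters (GTGGGAA, which holds the core), the core of the GRHL site (AACCGG), the N-box read by HES factors (CACNAG) and the GAS element of STAT factors. The promoters of 3 genes are shown, those of the 2 receptors, since these were the members with the lowest fold changes in co-culture, and that of Grhl3, the only one with an RBPJ core. Each is written 5′ to 3′ on the strand of its gene, and capitals mark the matches.
Notch1, chr2:26503823-26504072, minus strand: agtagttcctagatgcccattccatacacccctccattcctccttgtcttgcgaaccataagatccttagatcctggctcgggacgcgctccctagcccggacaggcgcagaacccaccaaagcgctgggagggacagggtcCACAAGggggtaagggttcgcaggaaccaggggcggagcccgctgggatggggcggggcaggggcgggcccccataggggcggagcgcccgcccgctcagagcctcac
Notch3, chr17:32166891-32167140, minus strand: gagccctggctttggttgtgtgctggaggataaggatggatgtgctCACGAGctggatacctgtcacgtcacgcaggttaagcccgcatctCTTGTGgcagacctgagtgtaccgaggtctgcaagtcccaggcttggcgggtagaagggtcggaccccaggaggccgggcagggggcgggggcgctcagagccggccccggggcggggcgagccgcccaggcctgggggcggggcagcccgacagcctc
Grhl3, chr4:135573633-135573882, minus strand: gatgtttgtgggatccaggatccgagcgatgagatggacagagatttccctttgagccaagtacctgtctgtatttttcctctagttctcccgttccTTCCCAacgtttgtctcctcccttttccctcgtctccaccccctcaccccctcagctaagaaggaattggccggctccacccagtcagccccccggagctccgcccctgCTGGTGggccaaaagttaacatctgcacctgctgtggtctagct
In Grhl3 the first capitals are the RBPJ core on the opposite strand, and the second an N-box. The core was found in 1 of 7 promoters of these genes and in 21.6% of all 32851 promoters, and the N-box in 4 of 7 (Notch1, Notch3, Grhl3 and Sfn) and in 36.7% of all. The longer RBPJ form, the GRHL core and GAS were not found in the 7 windows, and 5.42%, 5.62% and 7.02% of all promoters hold them. The Notch1 window lies inside the gene as the deposited tables delimit it (chr2:26457903-26516663). A match of letters is a description of the window only.

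Between 12864931 and 18019609 reads on exons were counted per library. The sums of 8 keratinocyte markers were 19983 to 23956 RPKM (reads scaled to exon length and to the mapped reads of the library) in the 4 keratinocyte libraries, and 2.13 to 137 RPKM in the T-cell libraries. The sums of 12 T-cell markers were 1595 to 3175 RPKM in T cells, and in keratinocytes they reached 133 and 516 RPKM alone and 169 and 928 RPKM after co-culture. The 2 keratinocyte libraries with replicate number 2 were thus the higher ones in either group. Cd8a and Cd8b1, the genes of the CD8 chains by which the T cells were selected, were at 0.107 to 2.00 RPKM in keratinocytes. Co-cultured keratinocytes carried the interferon response, with Cxcl9 at 0.0365 and 0.0813 RPKM without T cells against 175 and 62.5 RPKM with them. No label says that the 2 libraries of a group came from separate animals, so p-values measure the spread between these libraries only.

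In keratinocytes alone all 10 genes were expressed, in an order that spanned from Sfn to Jag2. Mean levels were 786 ± 101 RPKM for Sfn, 167 ± 48.7 for Hes1 and 75.7 ± 7.39 for Klf4 (SD, n = 2). A middle group was formed by Ovol1 (35.9 ± 2.17), Grhl3 (32.3 ± 15.3) and Notch1 (27.4 ± 6.84), in which neighbours overlapped in their libraries. Notch3 (18.7 ± 2.28) and Jag1 (18.6 ± 0.676) overlapped as well, and Trp63 (13.8 ± 0.48) and Jag2 (9.88 ± 3.04) were lowest. RPKM values are scaled to exon length, so they can be set side by side across genes, within limits. A single exon length was used per gene, whichever transcripts were made, and part of the reads of Sfn were not unique. The trend over gene length in these libraries, described below, was not removed from this order.

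**Figure D1:**
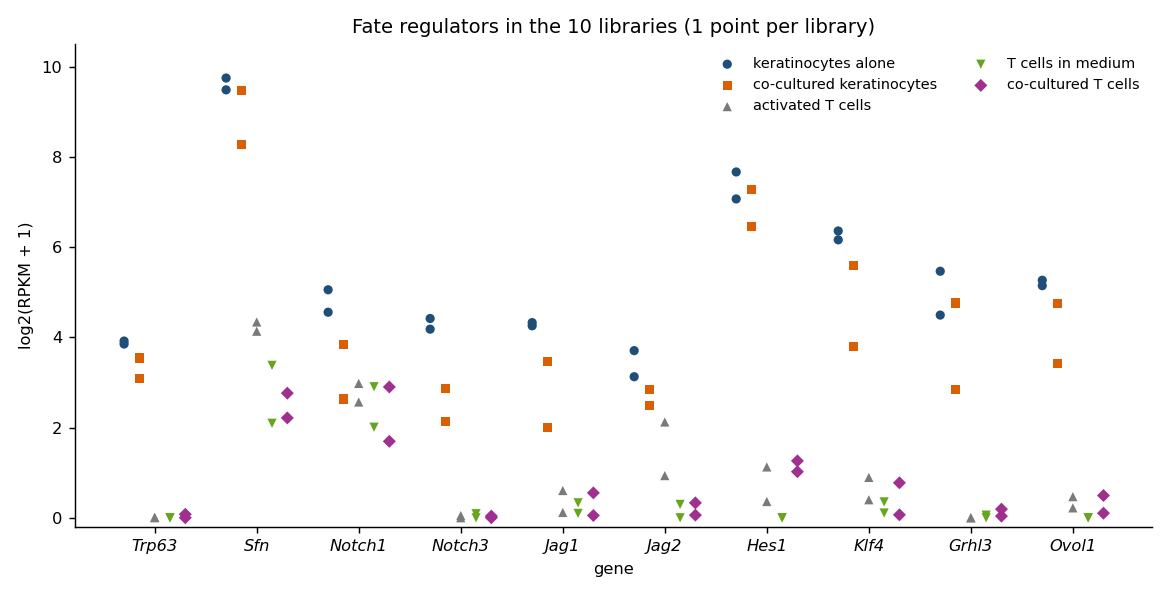
The vertical axis gives log2(RPKM + 1) of the 10 genes, with 1 point for each of the 10 libraries and 1 marker for each of the 5 groups. In keratinocytes alone the means span from 9.88 (Jag2) to 786 RPKM (Sfn), whereas in T cells only Notch1 and Sfn stay above 2 RPKM in all 6 libraries.

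After co-culture the fitted level of all 10 genes was lower than in keratinocytes alone, but for none did the difference pass an adjusted p of 0.05 (edgeR's quasi-likelihood test with Benjamini-Hochberg adjustment, 2 against 2 libraries). The fit called 0 of 12515 genes (0%), and this included Cxcl9, with an adjusted p of 0.434. At an unadjusted p under 0.05 stood 901 genes (7.2%), 515 of them lower (4.12%), among which were Notch1 and Notch3. DESeq2 called 177 genes (1.32%), with Notch3 as the only one of the 10 (adjusted p = 0.00653), and limma called 0. For 8 of the 10 genes both co-cultured libraries lay below both libraries of keratinocytes alone, and this was so for 24.3% of all genes tested. Log2 fold changes below 0 were found for 48.7% of all genes, with a median of 0.02, and the median of the 10 was -0.97.

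Trp63 lies on chromosome 16 (GRCm38, 25683763 to 25892102, plus strand), where Hes1 is the only other gene of the 10 on a plus strand. In GENCODE vM21 it has 8 transcripts, 4 with starts from position 25683763 and 4 with starts from position 25801916, and counts per gene do not separate the TA and ΔN proteins that these starts are known for. Its level was 13.4 and 14.1 RPKM in keratinocytes alone and 10.6 and 7.46 RPKM after co-culture, so the groups did not overlap. The log2 fold change was -0.55 (SE 0.29, adjusted p = 0.658), the second smallest in size of the 10 genes. With the trend over gene length removed it turned to 0.24 (SE 0.32), so the direction for Trp63 hangs on this choice.

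Both ligands were lower after co-culture without overlap. Jag1 (chr2:137081456-137116644), the ligand with the higher level, was at 18.1 and 19.0 RPKM without T cells against 10.01 and 2.98 RPKM with them, with a log2 fold change of -1.48 (SE 0.58, adjusted p = 0.658). For Jag2 (chr12:112907819-112929776) the values were 7.73 and 12.03 RPKM alone and 6.18 and 4.61 RPKM in co-culture, with a log2 fold change of -0.82 (SE 0.37, adjusted p = 0.658). In co-cultured replicate 2 Jag1 was below Jag2 in level, with a ratio of 0.647, whereas in the other 3 libraries Jag1 was 1.58 to 2.34 times the level of Jag2. Of the Delta ligands only Dll1 passed the filter on low counts, at 5.41 and 3.67 RPKM alone and 2.83 and 1.61 RPKM in co-culture.

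In the fit of all 4 libraries the receptors showed the lowest fold changes of the 10 genes, whereas Klf4 was lowest with the gene length trend removed (-1.31) and Jag1 without co-cultured replicate 1 (-2.51). Notch3 (chr17:32120820-32166880) was at 17.1 and 20.4 RPKM without T cells against 6.29 and 3.37 RPKM after co-culture, which is 3.88-fold lower by the means. Its log2 fold change of -1.91 (SE 0.38, unadjusted p = 0.00441, adjusted p = 0.658) was the lowest of the 10 genes. Notch1 was at 22.5 and 32.2 RPKM without T cells against 13.3 and 5.20 RPKM with them, with a log2 fold change of -1.53 (SE 0.52, unadjusted p = 0.0324, adjusted p = 0.658). The ratio of Notch1 to Notch3 stayed between 1.31 and 2.11 in the 4 libraries. The other two receptors were lower without overlap too. Notch2 was at 18.9 and 13.6 RPKM without T cells against 8.62 and 1.98 RPKM with them (log2 fold change -1.58, SE 0.69), and Notch4 was below 0.5 RPKM in all of them.

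Hes1 (chr16:30064384-30067796), a repressor of the basic helix-loop-helix family, had the smallest difference in the fit of all 4 libraries. It was at 202 and 133 RPKM without T cells against 153 and 86.3 RPKM with them, so the groups overlapped, and its log2 fold change of -0.42 (SE 0.39, adjusted p = 0.735) was nearest to 0. With the length trend removed it was -0.64, and Trp63 (0.24) and Jag2 (-0.50) were nearer to 0. Nrarp, which codes for a feedback inhibitor of Notch signaling, was at 65.1 and 48.1 RPKM without T cells against 13.3 and 11.03 RPKM with them. This is a log2 fold change of -2.14 (SE 0.30, unadjusted p = 0.000931, adjusted p = 0.456), and it lay between -2.33 and -1.95 under all alternatives, with adjusted p-values from 0.000164 (DESeq2) to 1. Hes1 was therefore 3.10 and 2.77 times the level of Nrarp in keratinocytes alone and 11.5 and 7.82 times in co-culture, with no overlap.

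Klf4 (chr4:55527143-55532466), a zinc finger factor of the suprabasal layers, was at 80.9 and 70.5 RPKM without T cells against 47.5 and 12.8 RPKM with them (log2 fold change -1.29, SE 0.62, adjusted p = 0.658). For Ovol1 (chr19:5549137-5560575), a zinc finger repressor that acts downstream in differentiation, 34.4 and 37.4 RPKM were measured alone and 25.8 and 9.70 RPKM in co-culture (log2 fold change -0.98, SE 0.48, adjusted p = 0.658). Both were lower without overlap, and the co-cultured replicate 2 was far below replicate 1. Grhl3 (chr4:135541888-135573630), a grainyhead factor needed for the skin barrier, was at 43.1 and 21.5 RPKM without T cells against 26.1 and 6.17 RPKM with them, with overlap of the groups (log2 fold change -0.96, SE 0.72, adjusted p = 0.691).

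Sfn (chr4:133600556-133602168, a single exon) codes for 14-3-3σ, a protein that p53 induces and that holds back the cell cycle in differentiating keratinocytes. It was at 715 and 857 RPKM without T cells against 710 and 307 RPKM with them, so replicate 1 of the co-culture almost reached the lower library of keratinocytes alone (log2 fold change -0.59, SE 0.48, adjusted p = 0.708). Only 53.3% to 58.4% of its reads mapped uniquely in keratinocytes, so its level is uncertain. With unique reads the log2 fold change was -0.54. The other genes of the p53 list did not share a direction: of 10 tested without Trp63 and Sfn, 3 had log2 fold changes below 0, and the largest value was that of Ccng1 (0.89, SE 0.34, adjusted p = 0.658), at 177 and 142 RPKM alone and 269 and 290 RPKM in co-culture.

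The size of these differences rested on co-cultured replicate 2, in which each of the 10 genes had its lowest level of all 4 keratinocyte libraries. Without co-cultured replicate 1, edgeR called 1164 genes (8.88%), 1057 of them lower, and 6 of the 10 genes fell: Jag1 (-2.51, adjusted p = 0.0104), Klf4 (-2.43, adjusted p = 0.0123), Notch3 (-2.35, adjusted p = 0.0134), Notch1 (-2.27, adjusted p = 0.0217), Grhl3 (-2.25, adjusted p = 0.0309) and Ovol1 (-1.76, adjusted p = 0.028). In that fit 1 library stood for the co-culture, and it was assumed to vary like the libraries of keratinocytes alone. Without co-cultured replicate 2, all 10 values stayed below 0, from -1.59 (Notch3) to -0.14 (Hes1), 0 of the 10 were called, and 21 genes in all (0.163%) were called, all higher. T-cell markers were also highest in co-cultured replicate 2 (928 RPKM), and their part in the result was not tested.

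Gene length moved with the groups as well. Over all genes tested, the median log2 fold change was 0.36 for genes with less than 1500 bases of exons and -0.58 for those with 6000 or more, and both co-cultured libraries were below both others for 12.1% and 45.4% of these genes, respectively. Trp63, Notch1 and Notch3, with 8391, 9768 and 8044 bases of exons, belong to the longest class. In this class the median deviation of a library from the mean of a gene was 0.49 and 0.22 for keratinocytes alone and 0.06 and -0.68 for the co-culture, on the log2 scale. With the trend removed from each library, 9 of the 10 genes remained below 0, at -0.76 for Notch1, -1.23 for Notch3, -1.18 for Jag1, -0.50 for Jag2 and -0.64 for Hes1, whereas Klf4 (-1.31), Ovol1 (-1.005) and Grhl3 (-1.01), with 2789 to 3049 bases of exons, moved by less than 0.1, and Sfn was at -0.75. The study's methods state a lower limit of RNA integrity for the RNA used, but give no value per library. The RNA quality of the libraries was not analysed here.

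**Figure D2:**
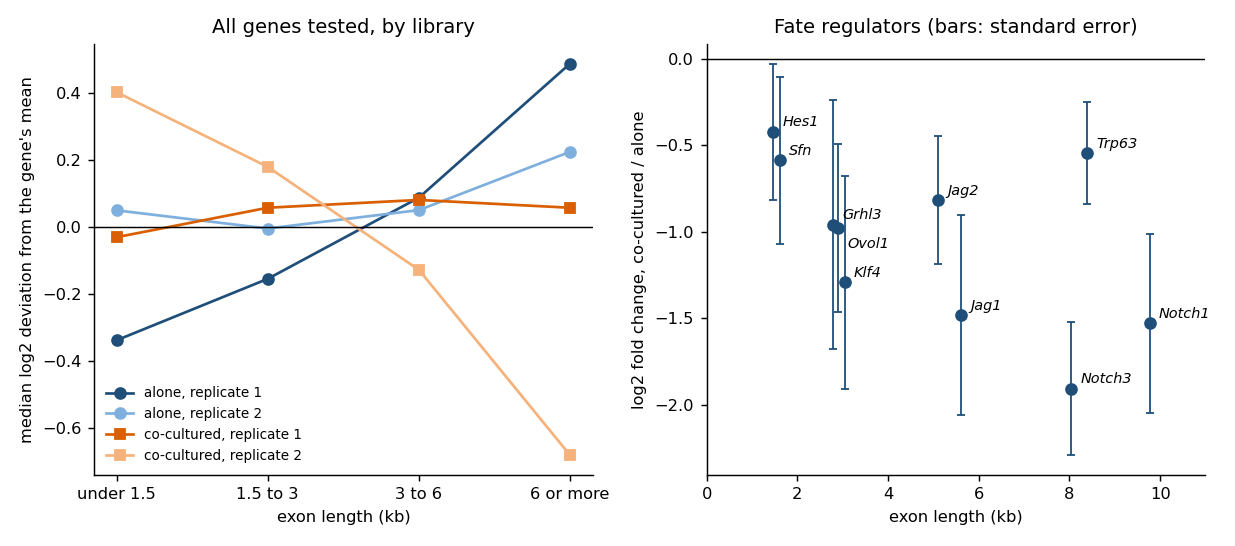
On the left, the median log2 deviation of all tested genes from their mean over the 4 keratinocyte libraries is plotted for 4 classes of exon length (kb), with 1 line per library. On the right, log2 fold changes of the 10 genes with standard errors are plotted against exon length. Co-cultured replicate 2 goes from 0.40 in the shortest to -0.68 in the longest class, and keratinocytes alone replicate 1 from -0.34 to 0.49.

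**Figure D3:**
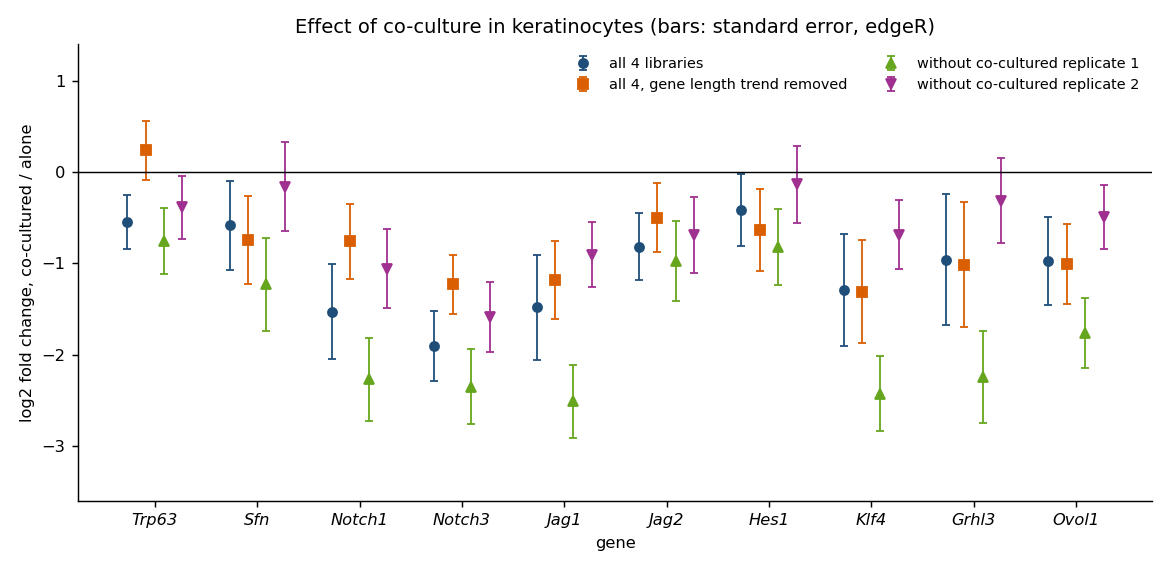
The vertical axis gives the log2 fold change of each of the 10 genes in co-cultured keratinocytes against keratinocytes alone, with the standard error from edgeR, in 4 fits. All values are below 0 with the exception of Trp63 after removal of the gene length trend (0.24), and without co-cultured replicate 1 they are lowest, down to -2.51 for Jag1.

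Around these 10 genes, the Notch pathway was described by a further 39 genes, of which 32 were tested. None was called by edgeR, 24 had a log2 fold change below 0, 18 were lower and 3 higher without overlap, 5 were lower at an unadjusted p under 0.05, and the median was -0.41. The 8 genes of the nuclear complex were the ones with the widest range. The corepressor gene Ncor1 was at 11.6 and 7.85 RPKM alone and 3.76 and 3.40 RPKM in co-culture, lower without overlap (log2 fold change -1.36, SE 0.31, adjusted p = 0.658). With the trend over gene length removed, Ncor1 was at -0.11 (SE 0.42). Rbpj, the DNA-binding partner of Notch, was at 5.17 and 6.67 RPKM without T cells against 5.15 and 7.80 RPKM with them, with overlap. Removal of the gene length trend brought the median of the nuclear complex from -1.12 to -0.34 and that of the 4 receptors from -1.74 to -1.01. For the 19 genes of processing and endocytosis the median was -0.17, and 0.02 with the trend removed. In the main fit 13 of them were below 0, with 8 lower and 3 higher without overlap, and 9 were below 0 with the trend removed. Furin, Numb and Mib1 (-1.15, -1.09 and -0.96) are named for the size of their change and do not stand for the list.

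Genes of the differentiation program were described in the same way. All 18 tested genes of the spinous and granular layers had log2 fold changes below 0, with a median of -2.52. Of these, 16 were lower without overlap, 14 stood at an unadjusted p under 0.05, and 0 were called by edgeR, 9 by DESeq2 and 10 by edgeR without co-cultured replicate 1. Ivl, coding for involucrin of the cornified envelope, was at 15.4 and 21.1 RPKM without T cells against 1.51 and 0.505 RPKM with them (log2 fold change -4.15, SE 0.62, adjusted p = 0.478). Removal of the length trend left this median at -2.58, and without co-cultured replicate 2 it was -2.26, with 17 of 18 below 0. Of the 21 other differentiation factors tested, 16 were below 0 and 12 lower without overlap, with a median of -0.71. Among them was Grhl1 (118 and 117 RPKM alone, 49.4 and 12.7 in co-culture, log2 fold change -1.89, SE 0.65, adjusted p = 0.658).

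Genes of the basal layer that depend on p63 were divided. Of 18 tested, 13 had a log2 fold change below 0, 10 were lower and 1 higher without overlap, and the median was -0.60. Krt5 and Krt14, the keratins of basal cells, had values of 0.46 (SE 0.43) and 0.39 (SE 0.53), and Perp of 0.02 (SE 0.53), whereas Dst, coding for a hemidesmosome protein of great length, was at 11.2 and 10.9 RPKM without T cells against 2.99 and 0.661 RPKM with them (log2 fold change -2.57, SE 0.72, adjusted p = 0.658). With the trend over gene length removed, Dst was at -0.77 and the median of the 18 genes at -0.38. DESeq2 called 1 of the 18 genes, and edgeR without co-cultured replicate 1 called 8. The 5 genes whose profile over the 10 libraries was nearest to that of Trp63 were Kcnj15, Tmem125, Eva1a, Hoxa9 and Duox1. Their log2(RPKM + 1), centred on the mean of each gene, differed from that of Trp63 by a root mean square of 0.118 to 0.140, among 8743 genes compared. All 5 were at 10.2 to 17.8 RPKM in keratinocytes alone, at 5.97 to 12.4 RPKM in co-culture and below 0.2 RPKM in T cells.

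**Figure D4:**
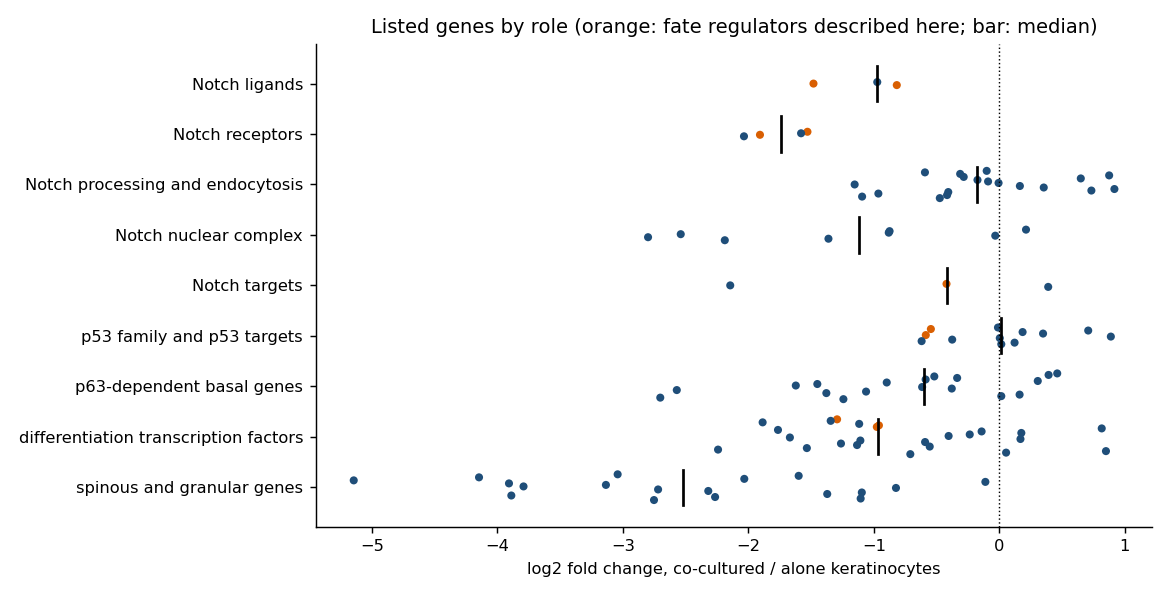
Each point is the log2 fold change of 1 gene in co-cultured keratinocytes against keratinocytes alone, sorted by role along the vertical axis, with a bar at the median of each list. Orange marks the 10 genes described here. The median of the spinous and granular genes is -2.52, of the Notch receptors -1.74 and of the p53 list 0.01.

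In T cells 7 of the 10 genes passed the filter on low counts, and Trp63, Notch3 and Grhl3 did not. Notch1 was at 6.88 and 4.92 RPKM in activated T cells, 6.49 and 3.02 RPKM in medium and 6.46 and 2.24 RPKM after co-culture. These ranges overlapped, and the log2 fold changes were -0.18 for medium and -0.28 for co-culture against activated T cells (SE 0.51 for both, adjusted p = 0.878 and 0.771). Sfn was at 16.6 and 19.2 RPKM in activated T cells, at 9.39 and 3.27 RPKM in medium and at 5.78 and 3.64 RPKM in co-culture. It was lower without overlap in both later groups, with log2 fold changes of -1.39 (SE 0.53, adjusted p = 0.151) and -1.75 (SE 0.53, adjusted p = 0.0751). The share of unique reads of Sfn was determined in keratinocytes only, so its level in T cells is uncertain as well. Jag2 was at 3.36 and 0.911 RPKM in activated T cells and at 0 to 0.257 RPKM in the other 4 libraries (log2 fold changes -4.11 and -3.65, adjusted p = 0.137 and 0.146).

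None of the 7 genes was called in the 3 comparisons of T cells, in which 6.54% (medium against activated), 10.3% (co-culture against activated) and 0.261% (co-culture against medium) of all 11863 genes were called. At an unadjusted p under 0.05 stood 4, 2 and 2 of them, and 25%, 28.8% and 3.45% of all genes. Hes1 and Ovol1 had 0 reads in both libraries in medium, so they passed the filter only through the other groups. The counts for the comparisons with medium are therefore a description. DESeq2 and edgeR without the filter called 2 of the 10 genes in each comparison with activated T cells and 0 in that of co-culture with medium. Of all genes, DESeq2 called 15.3% (medium against activated), 17.7% (co-culture against activated) and 0.611% (co-culture against medium), and edgeR without the filter 12.7%, 15.9% and 0.922%, respectively. The 3 comparisons share libraries. Hes1 was counted with 7 and 25 reads in activated T cells, 0 and 0 reads in medium, and 23 and 29 reads in co-culture. Taken against a floor of 3 reads per library, it was at least 9.67-fold higher in co-culture than in medium by mean RPKM. Its mean in co-cultured T cells was 1.01% of that in co-cultured keratinocytes. For the 7 keratinocyte markers with 5 or more RPKM in those keratinocytes, this share was 0.097% (Krt5) to 1.23% (Perp). Whether keratinocyte RNA gave these Hes1 reads was not tested. Rbpj fell in T cells, from 44.0 and 39.0 RPKM to 11.3 and 11.2 RPKM in medium (log2 fold change -1.74, SE 0.29, adjusted p = 0.0191) and to 12.4 and 12.3 RPKM in co-culture (log2 fold change -1.55, SE 0.28, adjusted p = 0.0164). The first call was lost without activated replicate 1 (adjusted p = 0.0886) or either library in medium (0.121 and 0.115), and the second without activated replicate 1 (0.0793) or either co-cultured library (0.0748 and 0.0818).

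Whether co-culture moved the genes unequally in both cell types was tested in a fit of 8 libraries, with T cells in medium as the counterpart of keratinocytes alone. If keratinocytes alone were kept in SFM only, the medium differed with co-culture in keratinocytes but not in T cells. Of 13202 genes 0.576% were called, among them Hes1 as 1 of the 10. Its difference was -8.38 on the log2 scale (SE 1.03, adjusted p = 0.0316), a value that hangs on 0 reads in both libraries of T cells in medium and is no measure of size. The source of the Hes1 reads in co-cultured T cells was not tested. With 1 library left out in turn, Hes1 kept an adjusted p under 0.05 in 1 of 8 fits. Nrarp was called with a difference of -4.73 (SE 0.44, adjusted p = 0.00767), and it had reads in all 8 libraries. While it was lower in co-cultured keratinocytes, it was at 0.777 and 0.696 RPKM in T cells in medium and at 3.84 and 4.598 RPKM in co-cultured T cells (log2 fold change 2.57, SE 0.55, adjusted p = 0.257). In activated T cells Nrarp was at 2.97 and 1.83 RPKM.

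Transcripts of keratinocyte genes were found in co-cultured T cells, and their source was not tested. Apart from Notch1 (47.0%), the 10 genes had at most 3.86% of their mean in co-cultured keratinocytes. Trp63 was at 0.0548 and 0 RPKM in co-cultured T cells, 0.303% of its mean in co-cultured keratinocytes, and Sfn was at 0.925%, below the 1.24% of T cells in medium. The median of the 9 genes with 5 or more RPKM in co-cultured keratinocytes was 1.26%, against 0.584% in T cells in medium. Keratinocyte markers had a median of 0.396%. Krt14 rose from 0.419 and 1.06 RPKM in medium to 61.6 and 16.8 RPKM in co-cultured T cells (adjusted p = 0.0449), a call that was lost without activated replicate 2 (0.0603) and without either library in medium (0.138 and 0.0892). Genes of the spinous and granular layers stood far above, with a median of 31.2% over 9 genes, which was 13.3% of their level in keratinocytes alone.

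Of the 19 listed spinous and granular genes, 15 were tested in T cells in co-culture against medium. Of these, 0 had log2 fold changes below 0, 14 were higher without overlap, and 7 were called higher. Among all 11863 genes tested, 1687 were higher without overlap and 31 were called higher. Genes at or near 0 in medium passed the filter on low counts only through the co-cultured libraries, so these counts are a description. For the same reason no p-values are given for the genes named next. Klk7, a protease of corneocyte shedding, was at 0 and 0 RPKM in medium and at 56.3 and 51.1 RPKM in co-culture, 445% of its mean in co-cultured keratinocytes. Calm4 was at 0 and 0 RPKM and at 146 and 183 RPKM, and Sprr1a, coding for a precursor of the cornified envelope, at 0 and 0.144 RPKM and at 429 and 306 RPKM. In the co-cultured keratinocytes the same genes were at 10.2 and 13.98 RPKM (Klk7), 9.54 and 8.33 RPKM (Calm4) and 685 and 78.5 RPKM (Sprr1a). Keratinocytes alone had 54.0 and 68.7 RPKM of Klk7 and 63.4 and 62.95 RPKM of Calm4. Both were thus lower in the co-cultured than in the other keratinocyte libraries without overlap. With 1 library left out in turn, log2 fold changes against medium were 13.65 to 13.74 for Klk7, 14.07 to 14.54 for Calm4 and 11.17 to 15.23 for Sprr1a. These values hang on counts at or near 0 in medium and are no measure of size. The count of 7 was 4 without replicate 1 in medium and 3 without replicate 2 in medium.

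**Figure D5:**
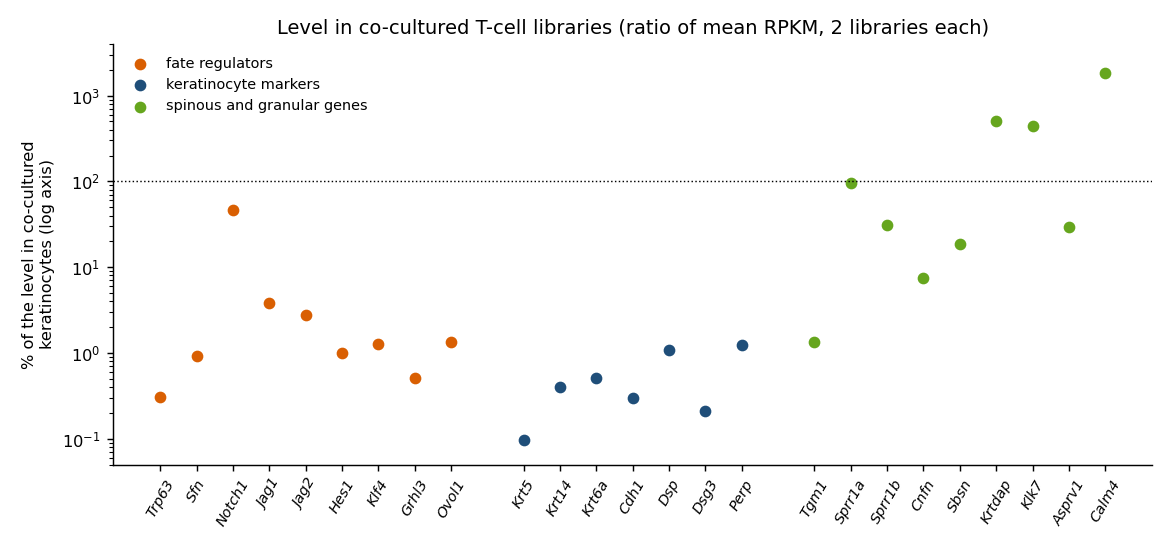
The vertical axis (log scale) gives the mean RPKM in co-cultured T cells as a percentage of that in co-cultured keratinocytes, for genes with 5 or more RPKM in the latter and a level above 0 in the former. The 9 genes described here and 7 keratinocyte markers are at 3.86% or below, with the exception of Notch1 (47.0%), whereas 9 spinous and granular genes reach up to 1846% (Calm4).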

How the data were processed

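Barcoded mRNA libraries were sequenced by the authors as single-end reads and mapped to GRCm38 with the CLC Genomics Workbench. Strand settings and the annotation release are not given in the sources used here. For every gene of a library the authors deposited the count of reads on exons, without normalization, and RPKM values, which they scaled to exon length and mapped reads. Samples were grouped by their labels. Exon reads were fitted by the quasi-likelihood test of edgeR 4.0.16 (R 4.3.3) after its filter on low counts and TMM scaling, with Benjamini-Hochberg adjustment and a threshold of 0.05, for 4 keratinocyte libraries, 6 T-cell libraries, and 8 libraries for the difference between cell types. RPKM values served for levels and ratios. Python 3.11.15 with pandas 2.3.3 and matplotlib 3.10.9 made tables and plots.

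The 10 genes and all lists were chosen with earlier results of these data known. Of the lists, genes called in a comparison, or up to 3 with the largest change at 5 or more RPKM, are named, and Notch2, Notch4, Dll1, Rbpj, Krt5, Krt14 and Perp beyond that rule after their values were seen, as was the choice of Klk7, Calm4 and Sprr1a among the 7 genes called. The single-gene values of 1 gene that this rule names are not reported here. B-cell, myeloid, fibroblast, melanocyte and endothelial markers had sums of at most 92.5, 71.3, 425, 20.7 and 22.3 RPKM in any library. The fibroblast sum of 425 RPKM was that of a library of T cells in medium. The fibroblast list holds Thy1, whose mean in co-cultured T cells was 449% of that in co-cultured keratinocytes, the highest share of the list. Whether fibroblasts were present was not tested.

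All comparisons were also run with DESeq2 1.42.0 and with each library left out. Those of keratinocytes and of T cells were run with limma 3.58.1 on log2(RPKM + 1), with plain library sizes, without the filter and with unique reads. For keratinocytes alone against co-culture, a pseudocount of 0.1, at least 10 reads in every library, the replicate number as a block, removal of each library's lowess trend (span 0.5) over exon length, and all 10 libraries in 1 fit were tried as well. Scaling to keratinocyte markers was added after seeing the data. A floor of 3 reads per library was used for genes at 0. It reflects counting alone, as no molecular identifiers were used.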

Additional observations from a re-analysis of the deposited data

Results flagged for a closer look

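Co-culture moved 2 genes of the Notch pathway differently in keratinocyte and in T-cell libraries by the test of the difference (edgeR's quasi-likelihood test with Benjamini-Hochberg adjustment, 8 libraries). Whether keratinocyte RNA in co-cultured T cells had a part in this was not tested. For Hes1 the log2 fold change in keratinocytes minus that in T cells was -8.38 (adjusted p = 0.0316). It rests on 0 reads in both libraries of T cells in medium, and with 1 library left out in turn it lay between -8.72 and -8.08, with adjusted p-values from 0.0345 to 0.107. For Nrarp the difference was -4.73 (adjusted p = 0.00767), between -4.94 and -4.49 with 1 library left out, and 6 of these 8 fits kept an adjusted p under 0.05.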

How the results depend on the processing

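In keratinocytes, the 10 genes kept log2 fold changes below 0 under all alternatives except for Trp63 with the gene length trend removed (0.24, also 0.24 with the block added). The number of genes called among all genes, 0 at first, was 177 with DESeq2, 11 without a filter, 4 with all 10 libraries in the fit, and 0 to 1164 with 1 library left out. The replicate numbers pair the keratinocyte libraries by label only (r = 0.56 between deviations of same-numbered libraries over 12515 genes, 2 pairs). With the replicate number as a block 2 genes were called, and 121 with the length trend removed as well, with 0 of the 10 in either and 9 of the 18 spinous and granular genes in the latter, and the cause was not tested. The T-cell libraries in medium and co-culture carry no replicate numbers in their labels. Medium against activated T cells (776 genes) gave 1843 with DESeq2, 1945 without a filter and 24 to 1067 with 1 library left out. Co-culture against activated T cells (1222) gave 2232, 2425, and 266 to 1093. Co-culture against medium (31) gave 88, 141, 99 with limma, and 16 to 52. The difference between cell types (76) gave 352 with DESeq2, with 2 of the 10 genes called, and 21 to 105. With 1 library left out, log2 fold changes turned in sign in T cells for Notch1 (-0.71 to 0.22 for medium and -1.10 to 0.23 for co-culture against activated, -0.92 to 0.43 for co-culture against medium), for Jag2 (-1.21 to 6.61) and Sfn (-0.90 to 0.46) in co-culture against medium, and in the difference between cell types for Jag2 (-7.56 to 0.38) and Sfn (-1.08 to 0.28). None of these values passed the test. The median of 1.26% in co-cultured T cells was 0.67% against keratinocytes alone, and 0.715% to 2.48% with 1 library left out. With 2 libraries per group, depth limits Trp63, Notch3 and Grhl3 in T cells, where they had at most 8 reads in any library.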
